A study of Mus musculus with 4 samples.

Results

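Small nucleolar RNAs (snoRNAs) of mouse bone marrow LSK cells were followed on 4 Affymetrix arrays as 51 of 19938 measured genes. They were chosen by symbol, as all probe sets whose only symbol starts with Snora or Snord, which gave 56 of 21789 single-symbol probe sets. Of these, 23 probe sets for 20 genes belonged to the H/ACA class (Snora) and 33 probe sets for 31 genes to the C/D class (Snord). LSK cells are the lineage-negative, Sca-1-positive, Kit-positive marrow fraction that contains blood stem cells and early progenitors, and all mice had the C57BL/6 background. The null group was 2 arrays of LSK/Flt3- cells from Vav-Cre/Hdac3Flox/- mice, in which Cre driven by the blood-wide Vav promoter deletes the floxed copy of the histone deacetylase gene Hdac3 and the other copy is already absent. There was 1 array of wild-type LSK/Flt3- cells (the Flt3- wild type) and 1 of wild-type LSK/Flt3+ cells (the Flt3+ wild type), and the labels name no Cre for either. Flt3 is a cytokine receptor that appears as LSK cells leave the stem cell state. Each array held sorted cells pooled from several mice, and the sources used here do not say if the null arrays hold different mice. The class was selected on its null against wild-type levels, because Snora73a and Snora73b were high on both null arrays, so the differences between null and wild-type cells are a description and carry no test.

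A snoRNA is a short nuclear RNA that guides chemical changes of ribosomal RNA. C/D snoRNAs guide methylation of the ribose by the enzyme fibrillarin, and H/ACA snoRNAs guide the conversion of uridine to pseudouridine by dyskerin. A few instead help to cut the ribosomal RNA precursor, among them Snora73 (H/ACA) and Snord118, Snord22 and Snord14 (C/D). Most mammalian snoRNAs are not transcribed alone but are cut out of the introns of a host gene, often a gene for a ribosomal protein or a long non-coding RNA of the Snhg kind. Ribosome production is of interest in blood stem cells because they make protein more slowly than the progenitors they give rise to. A probe set for an intronic snoRNA also lies within unspliced host RNA, so these arrays cannot tell the finished snoRNA from the intron that holds it.

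By position in the RefSeq gene table (GRCm38.p6), 54 of the 56 probe sets targeted a snoRNA inside a host gene, and only the 2 probe sets of Snord118, which has its own promoter, did not. There were 43 such hosts, of which 33 were protein-coding and 10 were long non-coding, and 16 ribosomal protein genes held 24 of the probe sets. The table gives no strand, so a gene that spans a snoRNA on the other strand counts as a host here. Snora73a and Snora73b both lie in Snhg3, a non-coding host beside the Rcc1 gene. The region around the annotated start of Snhg3 is shown because it is shared by the pair that stood out on both null arrays. It runs from 250 bases before the start to 50 bases from it (RefSeq, GRCm38.p6, chr4:132353637-132353936, minus strand), and capitals mark the TATAAA motif.
Snhg3: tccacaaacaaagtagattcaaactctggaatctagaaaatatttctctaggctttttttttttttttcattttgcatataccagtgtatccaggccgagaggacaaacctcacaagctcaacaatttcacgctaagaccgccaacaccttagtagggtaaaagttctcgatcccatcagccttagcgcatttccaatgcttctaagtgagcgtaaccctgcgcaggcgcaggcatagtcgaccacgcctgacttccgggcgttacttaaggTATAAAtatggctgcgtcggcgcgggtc
The motif TATAAA, searched on both strands, occurred 1 time here, on the gene's strand, and began 22 bases after the annotated start. It was present on either strand in 13.6% of 32851 RefSeq promoter windows of 300 bases and in 6 of the 25 host windows in that table.

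Starts of Snhg12, Snhg1 and Gas5 are set beside it, as 30 bases from 10 before the annotated start (RefSeq, GRCm38.p6). They are a selection from the 7 non-coding hosts, Snhg3 included, with an available start. None of their snoRNAs measured here was at least 2-fold above the Flt3- wild type on both null arrays, which holds for every host but Snhg3. Snord47 in Gas5 and Snora16a in Snhg12 did have both null arrays above both wild-type arrays. So did Snord104 and Snord52, whose non-coding hosts are not shown. Capitals mark the unbroken run of C and T that holds the start base.
Snhg3 (chr4:132353667-132353696, minus strand): gaccacgcctgacttccgggcgttacttaa
Snhg12 (chr4:132308668-132308697, plus strand): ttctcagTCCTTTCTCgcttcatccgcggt
Snhg1 (chr19:8723477-8723506, plus strand): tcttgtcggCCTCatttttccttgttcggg
Gas5 (chr1:161034591-161034620, plus strand): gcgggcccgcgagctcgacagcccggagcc
Many ribosomal protein transcripts are recognised by a run of pyrimidines at the beginning of the transcript. The run counted here can also extend before the start, so it is a wider feature than that. A run of at least 5 pyrimidines holding the start base was found in 9 of 25 host windows and in 10.1% of all windows. Snhg12 had a run of 9 bases, part of it before the start, and Snhg3 and Gas5 had 0 at the annotated base.

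Array-wide features bear on everything that follows. The medians over single-symbol probe sets were 5.72 and 5.55 on null replicates 1 and 2, 5.53 in the Flt3- and 5.60 in the Flt3+ wild type, all on the log2 scale. Null replicate 1 also had the narrowest spread, with an SD over probe sets of 1.88 against 1.96 to 2.00 on the others. Normalizing the arrays again moved the median difference of all probe sets between null replicate 1 and the Flt3- wild type from 0.15 to between -0.05 and -0.03. Of the sort markers, Kit was at 10.77, 10.36, 10.25 and 10.11 and Cd34 at 9.77, 9.90, 10.34 and 10.58 in that order of arrays. Flt3, by which the cells were sorted, was at 7.84 and 7.02 on the null arrays, 9.18 in the Flt3- and 10.07 in the Flt3+ wild type, while no probe set carried the Sca-1 gene Ly6a as its only symbol. Of 12 lineage marker genes 9 were measured, with the T- and B-cell markers Cd3e at 5.09 to 5.22 and Cd79a at 3.21 to 3.71. The T-cell gene Cd8a was at 5.72 and 5.41 on the null arrays, 5.05 in the Flt3- and 5.22 in the Flt3+ wild type. Cd4, another T-cell gene, was at 5.03 and 4.98 on the null arrays, against 5.03 and 5.89. Elane, a neutrophil granule gene, was at 6.61 and 7.77 on the null arrays and 5.80 and 6.16 on the wild-type arrays, and Nkg7, known from cytotoxic lymphocytes, at 8.58 and 10.06 against 8.21 and 8.76. Mpo, a gene of granulocyte-monocyte progenitors, was at 12.12 and 12.30 against 11.35 and 11.47. The myeloid markers Itgam, at 6.33 and 5.81 against 5.89 and 6.88, and Ly6g, at 3.71 and 4.24 against 3.84 and 3.93, had null and wild-type arrays that overlapped. Their part in the results was not tested, and in such bulk samples fewer cells of a type and less RNA per cell cannot be told apart.

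Snora73a and Snora73b, which take part in cutting the ribosomal RNA precursor, were the only snoRNA probe sets at least 2-fold above the Flt3- wild type on both null arrays. The log2 level of Snora73b was 9.63 on null replicate 1, 9.18 on null replicate 2, 6.66 in the Flt3- and 6.94 in the Flt3+ wild type. Snora73a stood at 8.74 and 8.84 on the null arrays, against 6.29 and 6.81. Both null arrays lay far above both wild-type arrays for each RNA, and the wild-type arrays differed from each other by 0.28 and 0.51. The mean log2 difference from the Flt3- wild type was 2.74 ± 0.38 (SE of the fit, n = 2 null arrays) for Snora73b, or 6.69-fold, and 2.50 ± 0.36 for Snora73a, or 5.64-fold. From the Flt3+ wild type it was 2.46 ± 0.38, or 5.52-fold, and 1.98 ± 0.36, or 3.95-fold. The error comes from the gap between the null arrays and from limma's prior over all probe sets, and the lone array of each wild type is taken to be as variable.

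No single-symbol probe set for the host Snhg3 was among those analysed. Rcc1, the neighbouring gene for a nucleotide exchange factor of the Ran GTPase, had levels of 7.13 and 7.24 on the null arrays, 7.42 in the Flt3- and 6.60 in the Flt3+ wild type. The null arrays lay between the wild-type arrays, so Rcc1 did not share the separation seen for the Snora73 pair.

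Across all single-symbol probe sets, 0.252% exceeded the Flt3- wild type at least 2-fold on both null arrays, and 0.386% were as far below it on both. The H/ACA class gave 2 of 23 higher (the Snora73 pair) and 0 lower, and the C/D class gave 0 of 33 either way. A limma fit over all probe sets, with p-values adjusted by Benjamini-Hochberg, serves here for genes outside the class, and its calls for snoRNAs are not given since the same contrast chose them. Against the Flt3- wild type it called 0.00918% of all probe sets higher and 0.00459% lower, and against the Flt3+ wild type 0.0321% and 0.229%.

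The Flt3+ wild type is another sorted fraction. Relative to it, 6 of 23 H/ACA probe sets were at least 2-fold higher on both null arrays and 0 of 33 C/D probe sets were, beside 0.257% of all probe sets. The 6 were Snora73a, Snora73b, Snora74a, Snora7a, Snora52 and Snora69. In the lower direction both classes had 0, beside 1.02%. Taken 1 array at a time, 20 H/ACA and 17 C/D probe sets were at least 2-fold higher on null replicate 1 (1.8% of all) and 6 and 0 on null replicate 2 (0.565% of all). None was as far below on null replicate 1 (2.24% of all), and only Snord61 was on null replicate 2 (1.58% of all). This comparison shares the null arrays with the one above and is no check of it.

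**Figure D1:**
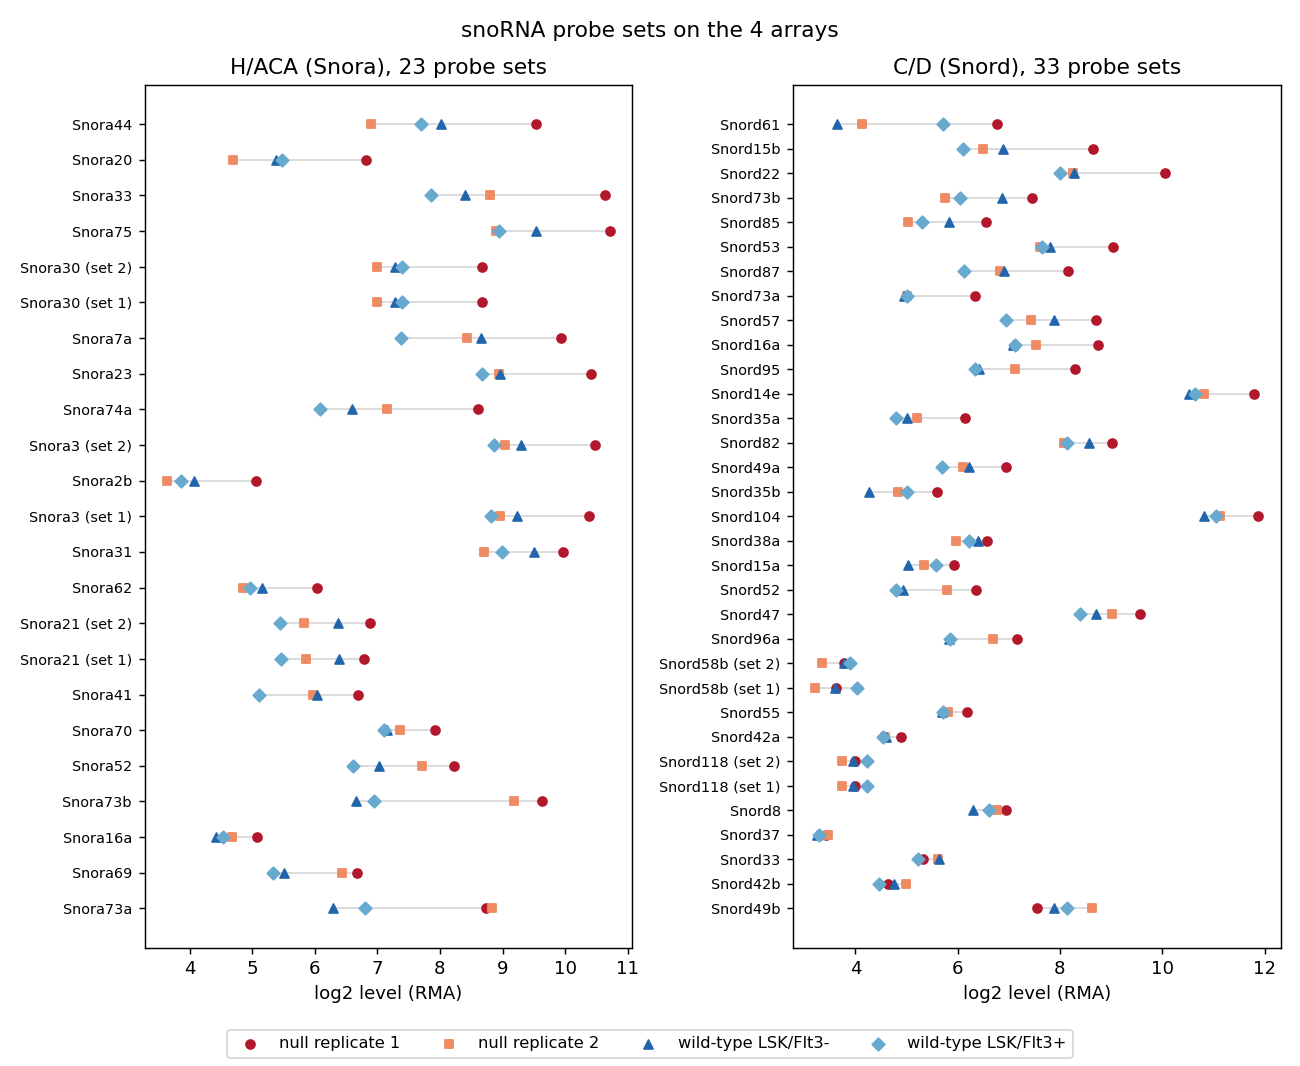
Log2 levels (RMA, x axis) of the 23 H/ACA and 33 C/D probe sets on the 4 arrays, 1 row per probe set, ordered by the difference between the null arrays; each symbol is 1 array and the grey line is the range. Null replicate 1 is the highest array in 47 of the 56 rows, while for Snora73a and Snora73b both null arrays stand clear of both wild-type arrays.

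Beyond the Snora73 pair, the main feature of the class was its level on null replicate 1. That array had the highest of the 4 levels for 22 of 23 H/ACA and 25 of 33 C/D probe sets, where 47.1% of all probe sets had theirs there. Against the Flt3- wild type, 15 H/ACA (65.2%) and 14 C/D probe sets (42.4%) exceeded it at least 2-fold on null replicate 1, beside 1.43% of all probe sets. On null replicate 2 the counts were 2 and 0, beside 0.661%. Of the 29 that were 2-fold higher on null replicate 1, 13 were below the Flt3- wild type on null replicate 2. Of all 21789 probe sets, 10012 were below it there, a similar share. In the lower direction, null replicate 1 had 0 of either class (1.22% of all) and null replicate 2 had Snora44 and Snord73b (0.913% of all).

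The median H/ACA log2 difference from the Flt3- wild type was 1.19 on null replicate 1 and -0.25 on null replicate 2. For C/D snoRNAs it was 0.82 and 0.06, and for all probe sets 0.15 and 0.02. All 23 H/ACA probe sets were higher on null replicate 1 in the deposited values and after each of the 3 other scalings, beside 66.6% of all probe sets as deposited and 43.3% to 46.4% after the others. Of the C/D probe sets, 30 were higher and 3 lower there as deposited, against 24 higher and 9 lower after quantile normalization, cyclic loess or centring.

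Set directly against each other, the null arrays differed by a median log2 difference of 1.43 (replicate 1 minus replicate 2) for H/ACA and 0.74 for C/D snoRNAs, beside 0.14 for all probe sets. At least 2-fold higher on replicate 1 were 15 H/ACA and 11 C/D probe sets, beside 1.5% of all. In the other direction there were 0 and 1, beside 1.51%. Since these arrays carry the same label, the snoRNA differences between null and wild-type cells depend strongly on which null array is used.

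**Figure D2:**
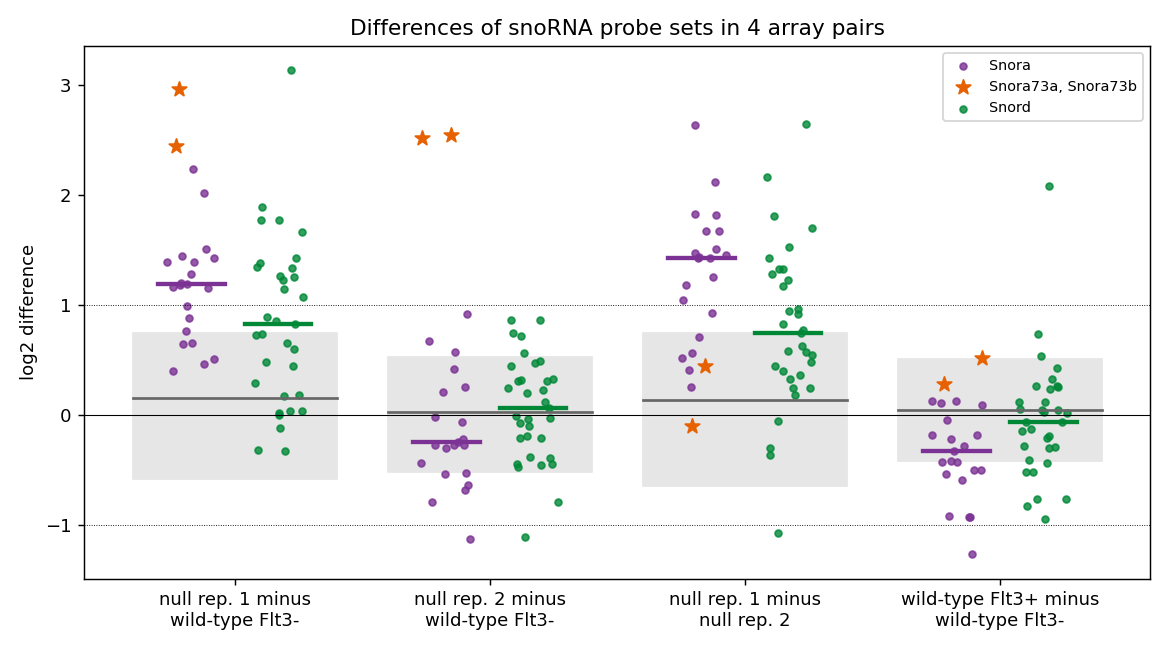
Log2 differences (y axis) of the H/ACA (purple) and C/D (green) probe sets in 4 pairs of arrays, with stars for Snora73a and Snora73b; coloured bars are class medians, grey boxes hold the central 90% of all 21789 probe sets with their median as a line, and dotted lines mark 2-fold. The purple bar is at 1.19 for null replicate 1 and -0.25 for null replicate 2, while the stars lie between 2.45 and 2.96 on both.

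Among the other H/ACA snoRNAs, 6 had both null arrays above both wild-type arrays. With the Snora73 pair this gave 8 of 23, and 12 of 33 C/D probe sets did the same, beside 22.5% of all probe sets as deposited and 16.9% to 17.4% after the other scalings. No snoRNA probe set had both null arrays below both wild-type arrays (11.8% of all did). Snora33, from an intron of the ribosomal protein gene Rps12, was at 10.63 and 8.81 on the null arrays, 8.39 in the Flt3- and 7.85 in the Flt3+ wild type. Its null arrays lay 1.83 apart, more than the 0.41 between null replicate 2 and the Flt3- wild type. Snora74a, whose host is Snhg4, was similar, at 8.61 and 7.16 against 6.59 and 6.08.

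Closer null arrays were seen for Snora69 (host Rpl39), at 6.68 and 6.43 against 5.51 and 5.33. Snora52 (host Rplp2) stood at 8.23 and 7.71 against 7.03 and 6.61. For both RNAs the null arrays lay closer to each other than either lay to a wild-type array. The mean difference from the Flt3- wild type was 1.04 for Snora69 and 0.94 for Snora52, less than that of either Snora73 RNA.

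Snora70 (host Rpl10) stood at 7.91 and 7.36 against 7.15 and 7.10, and Snora16a, from Snhg12, at 5.08 and 4.67 against 4.42 and 4.53, the smallest separations of the 8.

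For most other H/ACA snoRNAs null replicate 1 stood alone. Snora44, from Snhg12, was at 9.53 on null replicate 1 and 6.89 on null replicate 2, with the wild-type arrays between them at 8.02 and 7.69. Snora20, from the chaperonin gene Tcp1, was at 6.81 and 4.70, again on either side of the wild-type arrays at 5.39 and 5.47. Snora75, from the nucleolin gene Ncl, was at 10.71 and 8.89 against 9.53 and 8.94. In these 3 cases the mean of the null arrays hides values on opposite sides of the Flt3- wild type.

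Snora31, from Tpt1, was at 9.96 and 8.71 against 9.50 and 8.99. Snora3 (host Rpl27a) had 2 probe sets that differed by at most 0.09 on any array, the first at 10.39 and 8.96 against 9.24 and 8.81. Snora30 (host Srcap) had 2 probe sets with the same value on every array, 8.67 and 7.0 against 7.28 and 7.40, so that they are 1 measurement. Snora23, from the importin gene Ipo7, was at 10.41 on null replicate 1 and between 8.68 and 8.96 on the other 3 arrays. Snora62 (host Rpsa) and Snora2b (host Kansl2) had the same shape, at 6.04 and 5.06 on null replicate 1 and at most 5.16 and 4.08 on the others. Null replicate 1 was the highest array for each of these RNAs.

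Of the C/D snoRNAs, those with the largest mean difference from the Flt3- wild type and the same sign in all 4 array pairs were Snord95, Snord52, Snord96a, Snord16a, Snord14e and Snord73a. Snord95 was at 8.30 and 7.13 on null replicates 1 and 2, against 6.41 in the Flt3- and 6.34 in the Flt3+ wild type. Snord96a, whose host Rack1 it shares with Snord95, was at 7.16 and 6.69 against 5.82 and 5.85. Snord52 was at 6.36 and 5.79 against 4.93 and 4.80. In these 3 the null arrays were both higher than the wild-type arrays, and null replicate 2 stayed under 2-fold from the Flt3- wild type, by 0.72, 0.86 and 0.86.

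Snord16a, from Rpl4, was at 8.75 and 7.52 against 7.08 and 7.12. Snord35a, from Rpl13a, was at 6.15 and 5.21 against 5.00 and 4.79. Snord73a was at 6.34 on null replicate 1 and between 4.96 and 5.01 on the other 3 arrays. Snord14e, which lies in the chaperone gene Hspa8, was at 11.78 and 10.82 against 10.52 and 10.64. Snord104 was at 11.88 and 11.13 against 10.81 and 11.04, and Snord47, from Gas5, at 9.56 and 9.01 against 8.70 and 8.40. Each of these snoRNAs had null replicate 1 highest and null replicate 2 next, although for Snord73a null replicate 2 was only 0.005 above the Flt3+ wild type.

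Snord22, from Snhg1, was at 10.06 on null replicate 1 and between 8.0 and 8.28 on the others. Snord61, from the X-linked splicing factor gene Rbmx, varied most in the class, at 6.77 and 4.12 on the null arrays, 3.63 in the Flt3- and 5.71 in the Flt3+ wild type. The wild-type arrays alone differed by 2.08 for it, so it gives no clear order of genotypes. Among the other C/D snoRNAs with null replicate 1 well apart, Snord15b (host Rps3) was at 8.65 and 6.49 on the null arrays against 6.88 and 6.11, and Snord53 (host Wdr43) at 9.03 and 7.61 against 7.80 and 7.66. Snord87, Snord57, Snord73b and Snord82 also had null replicate 1 highest, by 0.44 to 1.25 over the Flt3- wild type.

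A smaller group varied little between the arrays. Snord118, which matures the large ribosomal subunit RNAs and is the one member outside a host, was at 3.99, 3.74, 3.95 and 4.22, with the same values on its 2 probe sets. Snord37 (3.25 to 3.47) and the 2 probe sets of Snord58b (3.22 to 4.03) also stayed within a narrow range. Snord118, Snord37 and Snord58b lay below the median of every array, so their narrow range says little about change. Snord42a (4.55 to 4.90), Snord55 (5.70 to 6.18), Snord38a (5.96 to 6.58) and Snord8 (6.29 to 6.94) spanned under 1 log2 unit as well. Of this group, Snord37, Snord55 and Snord8 were among the 12 C/D probe sets with both null arrays above both wild-type arrays.

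Only 4 C/D probe sets were lower on null replicate 1 than on null replicate 2. Snord49b was at 7.56 and 8.63, with the wild-type arrays between them at 7.88 and 8.14. The other 3 gaps were small: Snord42b was at 4.63 and 5.00, Snord33 at 5.32 and 5.62 and Snord37 at 3.42 and 3.47. Among H/ACA snoRNAs only Snora73a was lower on null replicate 1, by 0.10.

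SnoRNAs cut from the same host did not always move together, which 10 hosts with several member genes allowed to be seen. Snord49b and Snord49a lie in 1 non-coding host, 2410006H16Rik, and their null replicate 1 minus replicate 2 differences were -1.07 and 0.83. Snora44 and Snora16a, both in Snhg12, differed from the Flt3- wild type by -1.13 and 0.25 on null replicate 2. Snord73b and Snord73a, both in Rps3a1, differed by -1.11 and 0.06 there. On null replicate 1, Snord15b and Snord15a of Rps3 both stood above the Flt3- wild type, by 1.78 and 0.89. These are picked examples, each in the array pair given. Only the members of Rpl13a, Rpl23a and 2410006H16Rik had opposite signs against the Flt3- wild type on null replicate 1. The Snora73 pair in Snhg3 was at 2.55 for Snora73a and 2.52 for Snora73b on null replicate 2. The class was chosen because both were high there, so this likeness is not set against other hosts.

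The measured host genes, each taken by its brightest probe set, had smaller differences than nearly all of their snoRNAs on null replicate 1. Whether that probe set lies at the locus that holds the snoRNA was not checked. Most host probe sets were also brighter than those of their snoRNAs, and how far this affects the gap was not tested. Of the 43 hosts, 25 had a single-symbol probe set, and 18, Snhg1, Snhg3 and Snhg12 among them, did not. For 16 H/ACA probe sets with a measured host, the median log2 difference from the Flt3- wild type on null replicate 1 was 1.17 for the snoRNA and -0.09 for the host, and the snoRNA was above its host in 16 of 16. Snora3, Snora21 and Snora30 each enter these pairs with 2 probe sets of nearly the same values, so the pairs are not all separate measurements. For 16 C/D pairs the medians were 0.88 and 0.13, and the snoRNA was above in 15. Over the 25 hosts the median was 0.07 on null replicate 1 (-0.12 after centring) and -0.05 on null replicate 2. On null replicate 2 the snoRNA was above its host in 5 of 16 H/ACA and 9 of 16 C/D pairs. Rps12 was at 12.41 and 12.35 on the null arrays and 12.55 and 12.47 on the wild-type arrays, a range far smaller than that of Snora33 in its intron. Ncl was at 11.06 and 10.89 against 11.22 and 10.96, while Snora75 and Snord82 in its introns were 1.18 and 0.44 above the Flt3- wild type on null replicate 1.

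**Figure D3:**
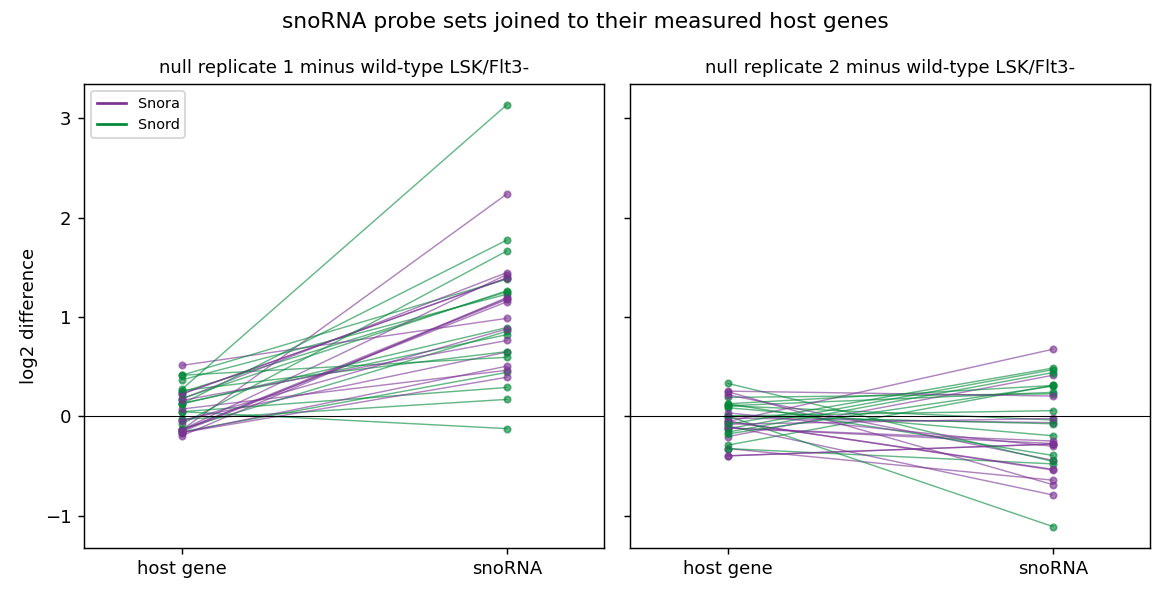
Log2 differences from the Flt3- wild type (y axis) of the 25 measured host genes and of the snoRNA probe sets inside them, joined by a line for each pair, on null replicate 1 (left) and null replicate 2 (right). On the left the lines climb from host to snoRNA in 31 of the 32 pairs, and on the right they go both ways.

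The non-coding host Gas5, whose exons code for no protein, had 4 probe sets that disagreed. The brightest, used in the pairs above, was at 12.29 and 12.13 on the null arrays against 12.42 and 12.27 on the wild-type arrays. Another was at 10.97 and 9.89 against 9.79 and 8.97, and one more at 11.56 and 10.48 against 10.65 and 10.23. Those 2 stood 1.18 and 0.91 above the Flt3- wild type on null replicate 1, against 0.86 for Snord47 in the same gene, and which part of Gas5 each probe set covers was not looked at. Over all 12 probe sets of Gas5 and the Snhg genes, some of them from the same gene, the median difference from the Flt3- wild type was 0.61 on null replicate 1 and 0.13 on null replicate 2. On these arrays 11 of 12 and 7 of 12 were higher (9 and 7 after the other scalings). Of all probe sets, 66.6% and 53.8% were higher as deposited, and 43.3% to 46.4% and 50.5% to 56.2% after the other scalings. None of the 12 passed limma against either wild-type array, and at an unadjusted p under 0.05 there were 0 against the Flt3- and 1 against the Flt3+ wild type. Of all 21789 probe sets, 222 were higher and 279 lower at that p against the Flt3- wild type, and 231 and 456 against the Flt3+. Lists as short as this one and the protein lists below would hold few or none at those shares. Snhg15 was at 1.34 and 0.40 and stood highest of these on both null arrays.

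The genes of the proteins that bind snoRNAs had medians below 0 on null replicate 1. All 4 H/ACA core protein genes and all 4 C/D core protein genes were measured, and 0 of the 8 passed limma against either wild-type array, also at an unadjusted p under 0.05. The H/ACA median was -0.37 on null replicate 1 and 0.33 on null replicate 2, each against the Flt3- wild type. Dkc1, which encodes the pseudouridine synthase dyskerin, stood apart at 0.42 and 0.29. Gar1 was at -0.45 and -0.12, and Nhp2, whose null arrays differed by 1.06, at -0.69 and 0.37. The C/D median was -0.25 and 0.14, with Fbl, the gene of the methyltransferase fibrillarin, at -0.27 and -0.10 and the scaffold gene Nop56 at 0.13 and 0.33. The sign of both medians was the same after each of the 3 other scalings.

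Of 19 genes for snoRNP assembly and maturation, 5 were higher and 14 lower on null replicate 1 (2 to 7 higher after the other scalings) and 9 higher and 10 lower on null replicate 2, with 0 past limma, also unadjusted. Their medians were -0.08 and -0.003. Those farthest from the Flt3- wild type with 1 sign on both null arrays were Znhit6 (-0.70 and -0.22), Ruvbl1, a helicase gene (-0.61 and -0.23), Ncl (-0.15 and -0.32) and Pih1d1 (-0.42 and -0.003). Of 28 genes of the small-subunit processome and ribosomal RNA processing, 13 were higher on null replicate 1 (6 to 12 after the other scalings) and 21 on null replicate 2, 0 passed limma, also unadjusted, and the medians were -0.07 and 0.16. Beside both lists, 66.6% of all probe sets were higher on null replicate 1 and 53.8% on null replicate 2. After the other scalings these shares were 43.3% to 46.4% and 50.5% to 56.2%. Utp4, a processome gene, was at 0.30 and 0.85. No protein list thus showed a difference of the size found for the snoRNAs on null replicate 1.

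Other small RNAs were compared to see whether short RNAs in general were high on null replicate 1. The 305 microRNA probe sets had a median of 0.33 there, with 263 higher and 40 lower, which became 0.09 to 0.13 with 183 to 200 higher after the other scalings. Of all probe sets, 66.6% were higher there as deposited and 43.3% to 46.4% after the other scalings. Among the small Cajal body RNAs, which guide modification of spliceosomal RNAs, Scarna8 was at 7.64 on null replicate 1 and between 5.38 and 5.54 on the other 3 arrays. Scarna13 was at 6.44 and 6.02 against 5.51 and 5.75, with both null arrays higher. Scarna17 went the other way, at 9.74 and 8.92 against 10.18 and 9.94, and its 2 probe sets had the same values. The C/D RNA of the small-subunit processome, Rnu3a, was at 7.56 and 7.36 against 7.35 and 7.65. Rnu5g, a spliceosomal RNA, was at 3.25 and 3.01 against 2.58 and 3.44. The Y RNAs Rny1 and Rny3 stood 0.60 and 0.45 above the Flt3- wild type on null replicate 1 and 0.41 and 0.32 on null replicate 2. Rpph1, the RNA of ribonuclease P, differed from it by -0.20 and -0.25.

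The telomerase RNA Terc, itself of the H/ACA kind, was at 5.43 and 5.31 against 5.33 and 5.29. Rn7sk was at 12.59 and 12.27 against 12.77 and 12.54, and Rmrp at 6.24 and 6.86 against 6.67 and 6.74. Of these lists, the 305 microRNA, 4 Scarna, 5 Rnu and 7 other small RNA probe sets, 0 passed limma against either wild-type array. At an unadjusted limma p under 0.05, 3 microRNA probe sets were higher and 1 lower against the Flt3- wild type. Against the Flt3+ wild type 4 were higher and 2 lower. Of all 21789 probe sets, 222 were higher and 279 lower at that p against the Flt3- wild type, and 231 and 456 against the Flt3+. The microRNA counts are near these shares, and the other lists are too short for their 0 to differ from them.

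**Figure D4:**
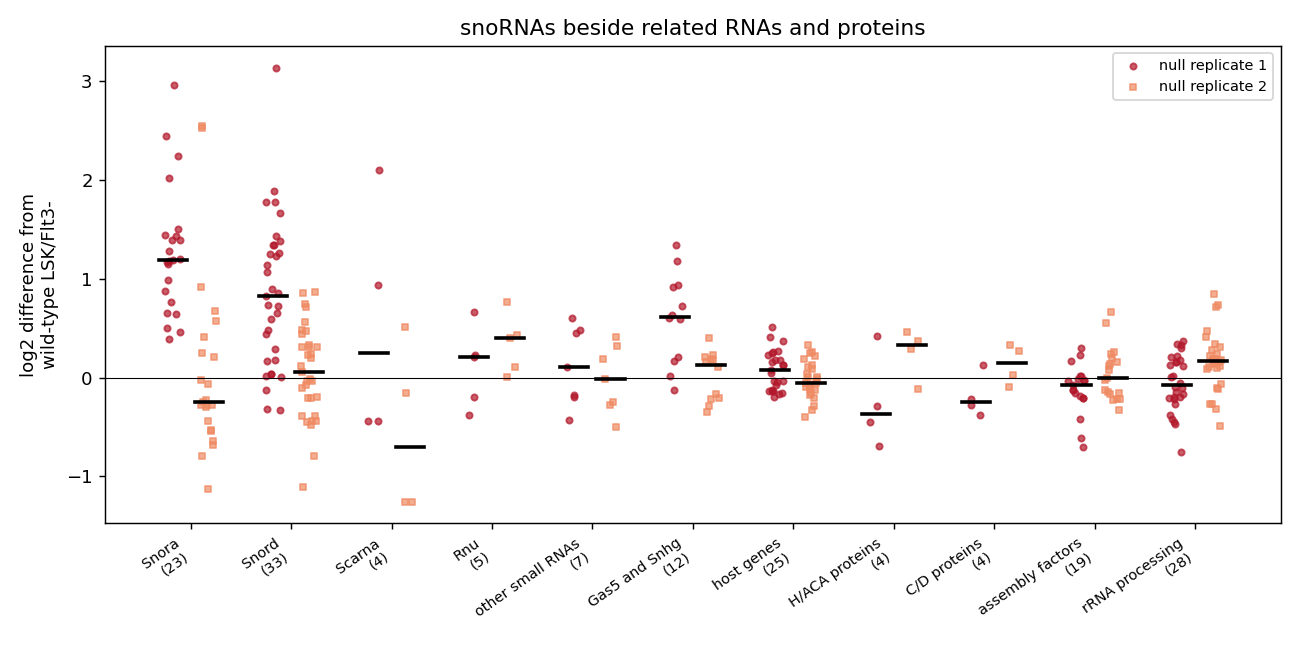
Log2 difference from the Flt3- wild type (y axis) of each probe set on null replicate 1 (circles) and null replicate 2 (squares) for snoRNAs, other small RNAs, host genes and snoRNA-related proteins, with the number of probe sets in brackets and black bars for medians. The bars of null replicate 1 are highest for Snora (1.19), Snord (0.82) and the Gas5 and Snhg probe sets (0.61), and below 0 for all 4 protein lists.

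Between the wild-type fractions, 54 of 56 snoRNA probe sets were under 2-fold apart, and with 1 array each there is no test. Such closeness was general, since only 0.872% of all probe sets were at least 2-fold higher and 0.202% as far lower in LSK/Flt3+ cells. The median log2 difference, LSK/Flt3+ minus LSK/Flt3-, was -0.33 for H/ACA and -0.06 for C/D snoRNAs, beside 0.04 for all probe sets. Of the H/ACA probe sets 17 were lower and 6 higher in LSK/Flt3+ cells, as deposited and after each other scaling, beside 56.5% of all probe sets higher as deposited and 44.2% to 51.8% after the others. The C/D probe sets split into 17 lower and 16 higher, or 20 to 22 lower and 11 to 13 higher after the other scalings. Snora7a, from Rpl32, was the one probe set at least 2-fold lower (0.202% of all), at 7.39 against 8.66 in LSK/Flt3- cells, with the null arrays at 9.94 and 8.43. After centring, 3 H/ACA and 1 C/D probe sets were at least 2-fold lower, beside 73 of all 21789. Snord61 was the one at least 2-fold higher (0.872% of all), also after each other scaling.

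Snora41 (host Eef1b2) was lower in LSK/Flt3+ cells by 0.93 on the log2 scale, with levels of 5.11 and 6.04, and Snora21 (host Rpl23) by about as much, at 5.46 and 6.39 on its first probe set. Among C/D snoRNAs, Snord57, from the Nop56 gene, was at 6.95 and 7.89, Snord73b at 6.04 and 6.87 and Snord87 at 6.13 and 6.90. On the higher side were Snord35b, at 5.01 against 4.27, and Snord15a, at 5.57 against 5.04. Snora73a and Snora73b were slightly higher in LSK/Flt3+ cells, by 0.51 and 0.28, and were the H/ACA members with the largest such differences. The H/ACA spread between the wild-type fractions was smaller than that between the null arrays, where the median gap was 1.43.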

How the data were processed

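Per the submitters' processing notes, the authors made the deposited log2 values with RMA and affy 1.23; a genome build of theirs was not used here. Of 35556 probe sets, 21789 had a single symbol in the platform annotation. The 41 naming a snoRNA beside other genes (24 of them Snord116) were left out. A limma 3.58.1 model (R 4.3.3) with a mean-dependent prior took the 4 arrays as 3 groups, with p-values adjusted by Benjamini-Hochberg at 0.05 over all single-symbol probe sets. It has 1 residual degree of freedom against a median of 7.98 for the prior. Precision is limited by how few arrays there are. Its errors come from the gap between the null arrays, which could be purely technical, and from that prior. Genes at least 2-fold apart were counted without a test. Array values were also quantile normalized, cyclic loess normalized or centred on their medians. Host genes and the context lists of named genes use the probe set with the highest mean per gene. The Gas5 and Snhg, Scarna, microRNA and Rnu lists instead use every matching probe set. The RefSeq table gives no strand, so the planned same-strand condition for hosts was dropped. The members and lists were chosen with earlier results of these data known. Named snoRNAs were the Snora73 pair, those with the largest differences of one sign, the highest means, and the largest differences within the wild-type and null pairs; of each context list, up to 4 with the largest differences of one sign were eligible. Genes named outside this rule were picked with their values in view. The sequences of the snoRNAs themselves were not used here. The values of 1 member are not reported here.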

Additional observations from a re-analysis of the deposited data

How the results depend on the processing

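No paired analysis was possible because the labels number only the null arrays. The array left out decides most counts. At least 2-fold from wild-type LSK/Flt3- cells, leaving out a null array gave 2 to 15 H/ACA and 0 to 14 C/D probe sets higher, and 0 to 1 of each lower. From wild-type LSK/Flt3+ cells it gave 6 to 20 and 0 to 17 higher, and 0 to 1 C/D lower. Without null replicate 1 the H/ACA median against wild-type LSK/Flt3- cells turned from 0.47 to -0.25, and without null replicate 2 it was 1.19. Quantile normalization, cyclic loess and centring each gave 1 C/D probe set, in place of 0, at least 2-fold above wild-type LSK/Flt3+ cells on both null arrays. Over all probe sets against wild-type LSK/Flt3- cells, limma called 2 higher and 1 lower; the robust fit called 10 and 9, the fit with 1 probe set per gene 4 and 0, and the fits without trend and after centring (an alternative chosen after seeing the data) 0 lower. Against wild-type LSK/Flt3+ cells it called 7 higher and 50 lower, against 12 and 86 in the robust fit, and 88, 77 and 14 lower after cyclic loess, centring and the minimum mean. Beyond the null array left out, the cause of these changes was not tested. Leaving out a null array leaves limma no residual degrees of freedom, so only values are given.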
